A study of Sus scrofa with 6 samples.

Results

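Glutathione transferases and the enzymes that make and recycle glutathione were followed in pig oocytes with and without malathion. Members were taken by symbol from a list of 9 genes: the soluble transferases GSTA4, GSTM3, GSTP1 and GSTO1, the microsomal transferases MGST1, MGST2 and MGST3, glutathione synthetase (GSS) and glutathione reductase (GSR). Of these, 8 were paired with an Ensembl identifier among the 25880 genes of the count files. GSTP1 was paired with none in the gene name tables used here and has no value. MGST1 had too few counts for the test, so 7 members were tested.

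Glutathione is a small thiol peptide that keeps the oocyte cytoplasm reduced and is built up during maturation, and it is later used when the sperm nucleus decondenses. GSS completes its synthesis, and GSR uses NADPH to return the oxidised form to the reduced form. Transferases couple glutathione to electrophiles, among them products of lipid peroxidation and foreign compounds. Organophosphates such as malathion can be metabolised in part by this route.

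The study sequenced pig (Sus scrofa) oocytes labelled MII, the arrest of a mature egg at metaphase of meiosis II, in 3 control and 3 malathion libraries. Malathion, an organophosphate insecticide, was diluted from a DMSO stock of 0.75 M into the medium used for maturation in vitro, at a final 1 mM. The labels name no further agent for the control and do not say whether it received DMSO. Ovaries came from a slaughterhouse and the oocytes were matured as complexes with their cumulus cells. The labels give no count of oocytes per library and name no separate cultures behind the replicates. P-values therefore set the difference between groups only against the spread between these libraries, and that spread may be technical.

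Total gene counts were 25816040 to 42312341 per library, and CPM (reads per 1e6 gene counts) are counts over these totals. Both replicate 3 libraries stood apart: they held 8344 and 8492 detected genes against 12211 to 14707 in the other 4. Oocyte markers (11 of 12 matched) summed to 3973 and 4336 CPM in control and malathion replicates 3 and to 26730 to 74890 CPM in the other 4, and all 11 had counts in each library except control replicate 3, where 10 did. Not all of them were low in replicates 3: ZP2 (2158 CPM) and MOS (1458 CPM) had their highest value in malathion replicate 3, and OOEP (382 CPM) in control replicate 3. Among the tested genes, 83.8% had both replicate 3 libraries below the other 4 in CPM. The fold change of each tested member is therefore given with and without both replicates 3. Levels are compared between libraries for a gene and not between genes, since transcript lengths were not used here. Which library is highest or lowest is given in CPM on library totals unless normalised CPM are named.

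No member passed the test of malathion against control, and each difference of group means lay within the spread between libraries. Under edgeR's quasi-likelihood test, 0 of the 7 tested members passed an adjusted p of 0.05 (Benjamini-Hochberg over 10678 genes), against a background of 0% (0 genes, smallest adjusted p 0.9998). At an unadjusted p under 0.05 there were 383 genes, or 3.59% of those tested. DESeq2 had 227 there (2.37% of the 9559 genes it gave a p) and limma-voom 110 (1.03%), and both called 0 genes too. The edgeR fit without both replicates 3 had 2.17% there, with library totals 1.03% and blocked by replicate number 1.12%, each with 0 genes called. Calls over all genes appeared only without the filter on low counts (0.356%) and without malathion replicate 1 (0.0264%) or malathion replicate 2 (0.0269%), and no member was among them. The CPM of the groups overlapped for each of the 8 members, and 0.749% of all tested genes had groups that did not overlap. Within these bounds the members followed different patterns across the libraries.

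**Figure D1:**
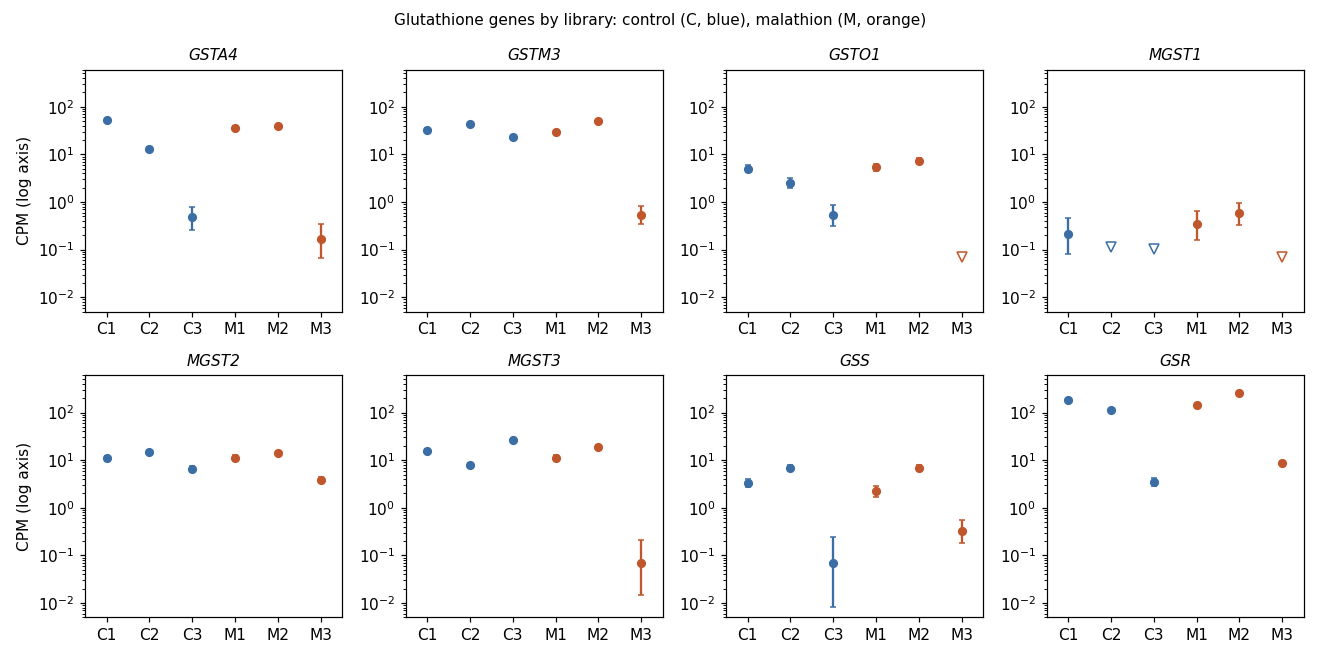
CPM (log axis) of 8 glutathione genes in control replicates 1 to 3 (C1 to C3, blue) and malathion replicates 1 to 3 (M1 to M3, orange). Bars are exact 95% binomial intervals, which cover counting error only, and open triangles mark libraries with 0 counts at the level of 3 counts. MGST3 stays at 26.4 CPM in C3 and is at 0.0709 CPM in M3, while GSTA4 and GSR are low in both.

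GSR (ENSSSCG00000015844), the reductase of the cycle, stood at 188, 110 and 3.56 CPM in control replicates 1, 2 and 3. The malathion libraries, in the same order, held 145, 254 and 8.63 CPM. Malathion replicate 2 was the highest library and control replicate 3 the lowest, and the group means, 101 ± 92.4 CPM in control and 136 ± 123 CPM in malathion (SD, n = 3 each), lay well within the spread. The log2 fold change, malathion minus control, was 0.72 ± 0.96 (SE) with TMM factors, edgeR's scaling, and 0.43 ± 1.85 with library totals alone (edgeR adjusted p = 0.9998 and 1), and 0.54 ± 0.58 with TMM factors without both replicates 3. Replicates 1 differed in the other direction, with control at 1.30 times malathion.

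GSS (ENSSSCG00000007287), which joins glycine to the dipeptide precursor, was at 3.35, 6.90 and 0.0679 CPM in the control and at 2.25, 6.77 and 0.331 CPM in the malathion libraries. The value in control replicate 3 rests on 2 counts (exact 95% interval 0.00822 to 0.245 CPM) and that in malathion replicate 3 on 14. Replicates 2 were nearly equal and above replicates 1 in both groups. Its log2 fold change of 0.59 ± 1.34 turned to −0.14 (95% interval −5.03 to 4.75) with library totals alone, and was 0.09 ± 0.75 with TMM factors without both replicates 3. In normalised CPM control and malathion replicates 3 stood at 0.482 and 2.39, and the other libraries between 0.996 and 2.53.

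GSTA4 (ENSSSCG00000002627), an alpha class transferase that acts on aldehydes from lipid peroxidation, had 53.3, 12.9 and 0.475 CPM in the control and 36.3, 38.9 and 0.165 CPM in the malathion libraries. Control replicate 1 was the highest, and control replicate 2 lay below both malathion replicates 1 and 2. The fold change was near 0 under both scalings, 0.12 ± 1.16 and 0.18 ± 2.01. Its sign changed when single libraries were left out, with 1.62 without control replicate 1 and −0.28 without control replicate 2. Without both replicates 3 it was 0.24 ± 0.83.

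GSTM3 (ENSSSCG00000006821), a mu class transferase, showed another pattern. It stood at 33.1, 42.5 and 23.1 CPM in the control libraries and at 30.2, 51.0 and 0.544 CPM in the malathion libraries, so it was kept in control replicate 3 and low in malathion replicate 3. The 5 libraries other than malathion replicate 3 lay between 23.1 and 51.0 CPM. The log2 fold change was −2.38 with TMM factors (95% interval −4.94 to 0.19, unadjusted p = 0.0669, adjusted p = 0.9998) and −0.27 ± 1.98 with library totals. With TMM factors it was −0.07 without control replicate 3, −1.93 without malathion replicate 3 and 0.34 ± 0.46 without both. In normalised CPM, the values divided by the TMM factors, control replicate 3 stood at 164 and the other 5 libraries between 3.93 and 19.1.

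GSTO1 (ENSSSCG00000022351), an omega class enzyme with thiol transferase and dehydroascorbate reductase activity, had 4.97, 2.51 and 0.543 CPM in the control and 5.42, 7.42 and 0 CPM in the malathion libraries. The count of 0 in malathion replicate 3 allows up to 0.0709 CPM by 3 counts, or 0.0872 CPM by the exact 95% interval. In replicates 1 and 2 the malathion library was the higher of the pair, and in replicates 3 the lower. The fold change was −0.30 ± 1.51 with TMM factors and 0.68 ± 2.49 with library totals, so its direction depended on the scaling. Without both replicates 3 it was 0.90 ± 0.75, and without control replicate 3 alone 0.36. In normalised CPM control replicate 3 was the highest library of GSTO1, at 3.86 against 0 to 2.77 in the others.

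MGST1 (ENSSSCG00000032580), a transferase and peroxidase of the endoplasmic reticulum and outer mitochondrial membrane, was barely detected. Control libraries had 6, 0 and 0 counts and malathion libraries 9, 16 and 0 counts, or at most 0.576 CPM (exact 95% interval 0.329 to 0.936). The gene did not pass the filter on low counts, so the main test gave it no fold change. Without that filter it was among the 8 members fitted, of which 0 were called. So few counts do not show whether the groups differ.

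MGST2 (ENSSSCG00000031736), which can form cysteinyl leukotrienes, had the smallest ratio of highest to lowest library among the tested members in CPM, 3.90, but not in normalised CPM, where it was 10.8 against 3.75 for GSR and 5.25 for GSS. It stood at 11.0, 15.1 and 6.41 CPM in the control and at 11.4, 14.0 and 3.88 CPM in the malathion libraries, with nearly equal values in replicates 1. Group means were 10.9 ± 4.36 and 9.74 ± 5.25 CPM (SD, n = 3 each). The log2 fold change was −0.50 ± 1.16 with TMM factors and −0.16 ± 2.19 with library totals. Leaving out control replicate 3 moved the first to 1.52 and leaving out malathion replicate 3 to −1.78, and the TMM factors of these libraries were 0.141 and 0.138, against 2.26 to 3.57 in the others. In normalised CPM MGST2 stood at 45.6 and 28.0 in them. Without both it was 0.22 ± 0.49.

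MGST3 (ENSSSCG00000006325), another membrane-bound transferase and peroxidase, had the smallest p of the members in the main test. Blocked by replicate number, GSR had the smallest (edgeR unadjusted p = 0.199), and without both replicates 3 GSTO1 did (edgeR unadjusted p = 0.277). MGST3 was at 15.6, 7.75 and 26.4 CPM in the control and at 11.2, 19.3 and 0.0709 CPM in the malathion libraries. Control replicate 3 was its highest library, which held for 4.42% of tested genes, and malathion replicate 3 had 3 counts (exact 95% interval 0.0146 to 0.207 CPM). The log2 fold change was −3.93 ± 1.55 with TMM factors (95% interval −7.25 to −0.61, unadjusted p = 0.0236, edgeR adjusted p = 0.9998). The size rests on control replicate 3, which stood at 187 normalised CPM against 0.513 to 7.20 in the other 5 libraries: it was −0.01 without this library and −3.39 without malathion replicate 3. Without both it was 0.49 ± 0.67, and with library totals alone −0.70 ± 2.13. Blocked by replicate number it was −1.08 ± 1.81. Its adjusted p lay between 0.181 (edgeR with no filter on low counts) and 1 over the alternatives, and DESeq2 gave none.

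**Figure D2:**
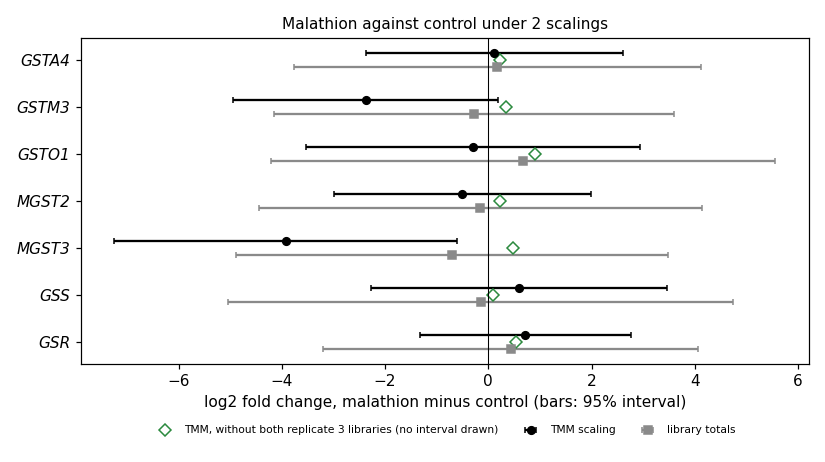
Log2 fold change, malathion minus control, of the 7 tested members with TMM factors (black) and library totals (grey), bars being 95% intervals over 3 against 3 libraries, and with TMM factors without both replicate 3 libraries (green diamonds, no interval drawn). MGST3 sits at −3.93, −0.70 and 0.49 and GSR at 0.72, 0.43 and 0.54.

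Counted over the list, 4 of the 7 tested members had a log2 fold change below 0 and 3 above, with a median of −0.30, against 53.4% below 0 and a median of −0.08 over all tested genes. With library totals the split was again 4 to 3, with a median of −0.14 against 66.3% below 0 and a median of −0.33 over all genes. Without both replicates 3 and with TMM factors, 7 of 7 were above 0 (median 0.34, all genes −0.06), and 53.5% of all genes were below 0. With library totals the same 4 libraries gave 5 above and 2 below (median 0.18, all genes −0.34). None of these settings called a member, and the smallest adjusted p of a member without replicates 3 was 0.9909.

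The pairs of same-numbered libraries did not share a direction. In replicates 1, 5 of the 8 members were lower in malathion and 3 higher, and 7 lay within 1.5-fold of each other, which held for 67.3% of tested genes. In replicates 2, 6 of 8 were higher in malathion. The log2 ratio there, on CPM plus 1, was 1.52 for GSTA4, 1.26 for GSTO1, 1.21 for MGST3 and 1.20 for GSR, and −0.10 for MGST2 and −0.02 for GSS. Taken over the 7 tested members, the median was −0.37, 1.20 and −0.60 for replicates 1, 2 and 3, against −0.08, −0.37 and 0 over all tested genes. None of the 8 members differed in the same direction in all 3 pairs, while 14.6% of tested genes were lower and 6.80% higher in all 3. With control replicate 1 as the only control against malathion replicates 1 and 2, a comparison with no test, the log2 ratio of mean CPM was between −0.51 for GSTA4 and 0.43 for GSS.

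**Figure D3:**
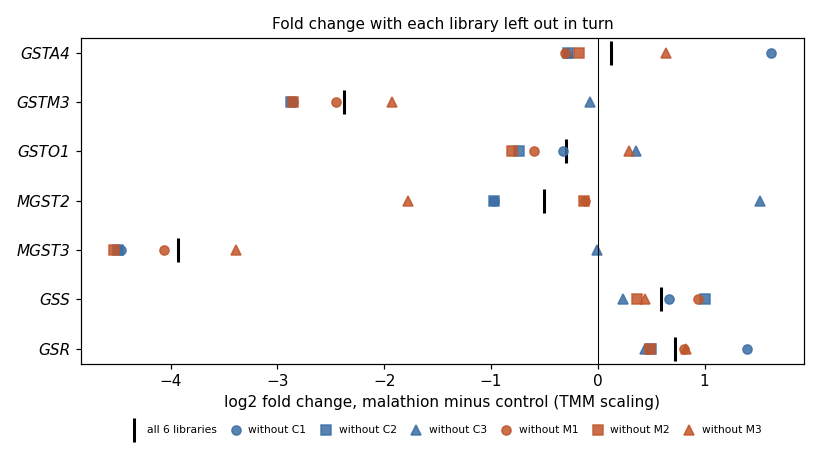
Log2 fold change of the 7 tested members with TMM factors over all 6 libraries (black bar) and with each library left out (C control, M malathion). GSTM3 and MGST3 move to −0.07 and −0.01 without C3, GSTA4 to 1.62 without C1, and GSS and GSR stay above 0.

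Across the 6 libraries the members did not all share a profile. GSR, GSTA4 and GSTO1 had similar profiles (Pearson r of log2 CPM plus 1 from 0.93 to 0.97 over 6 libraries). MGST2 correlated with GSTM3 at 0.90, with GSS at 0.91 and with GSR at 0.86, and GSS with GSR at 0.91. MGST3 correlated with GSR at 0.32 and with GSS at 0.30 and with GSTM3 at 0.89. These values describe 6 points that share the low replicate 3 libraries. Both replicate 3 libraries were below the other 4 for 6 of the 7 tested members, near the 83.8% of all tested genes. Malathion replicate 2 was the highest library for 3 of the 7 (18.2% of tested genes) and control replicate 2 for 2, MGST2 and GSS (54.7%). Malathion replicate 3 lay over 10-fold below each of the other 5 libraries for GSTM3, MGST3 and GSTO1, the last with 0 counts there. This held for 12.4% of tested genes, those with 0 counts in that library included. Among the genes most like GSR, out of 4719 candidates, were TES and TAF13 (r = 0.999 each over the 6 libraries). TES stood at 243, 156 and 11.0 CPM in the control and at 218, 301 and 21.3 CPM in the malathion libraries, with malathion replicate 2 highest and control replicate 3 lowest, as for GSR.

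Cumulus and granulosa cells surround the oocyte and also hold glutathione enzymes, so their markers are given beside the members. The 14 matched markers of 17 summed to 670, 437 and 40.2 CPM in the control and to 714, 751 and 68.1 CPM in the malathion libraries, most of it VCAN and KITLG. AMH was at 0 in each library, FSHR at or below 0.540 CPM and PTX3 at or below 0.252 CPM, and between 7 and 13 of the 14 were detected. CYP11A1, a steroid-making enzyme, and STAR were highest in malathion replicate 2 (81.6 and 25.0 CPM), where GSR, GSTM3, GSTO1 and MGST1 were highest too. So were INHBA (17.4 CPM), FST (14.2 CPM), SERPINE2 (13.5 CPM), HAS2, PTX3 and LHCGR. VCAN, KITLG and TNFAIP6 were highest in malathion replicate 1 (424, 244 and 2.56 CPM), FSHR in control replicate 1 and NR5A1 in control replicate 3. VCAN was nearly as high in control replicate 1 (421 CPM) and malathion replicate 2 (417 CPM). Some markers thus shared the highest library of these members and others did not. Markers of theca, stroma, endothelium and blood (12 of 13 matched) summed to 0.969 to 22.8 CPM, with CYP17A1 and CDH5 at 0 throughout. Their part in the members' levels was not tested, and in such libraries fewer cells of a type and less RNA per cell cannot be told apart.

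Further genes of glutathione chemistry came from lists of 20 other transferases and 43 pathway genes, of which 10 and 36 were paired with an identifier and 5 and 27 were tested. None of these 32 passed the test. With TMM factors 21 were above 0 and 11 below (median log2 fold change 0.21), and with library totals 14 above and 18 below (median −0.06), so the direction of the list depended on the scaling.

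HPGDS (ENSSSCG00000009194), a sigma class transferase that makes prostaglandin D, was present in 5 libraries at 342 to 502 CPM. In malathion replicate 3 it stood at 3.36 CPM. Like GSTM3, it was thus kept in control replicate 3 (342 CPM) and low in malathion replicate 3, with a log2 fold change of −2.85 ± 1.78 (unadjusted p = 0.130, edgeR adjusted p = 0.9998), −0.56 with library totals and 0.12 without both replicates 3. In normalised CPM control replicate 3 stood at 2428 and the other 5 libraries between 24.3 and 223. GSTCD, a protein with a transferase-like domain, was at 39.9, 30.0 and 7.43 CPM in the control and at 37.7, 42.2 and 11.3 CPM in the malathion libraries. GSTK1, the kappa class transferase of mitochondria and peroxisomes, had the second smallest p among tested genes of these lists above 0 (1.38 ± 1.48). It had 57, 80 and 0 control counts and 74, 85 and 14 malathion counts.

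GCLC (ENSSSCG00000001488), the catalytic subunit of the enzyme that sets the pace of glutathione synthesis, had the smallest ratio of highest to lowest library among the named pathway genes in CPM, 1.49. In normalised CPM the ratio was 38.5, with 261 and 352 in control and malathion replicates 3 against 9.15 to 18.1 in the other 4 libraries. It stood at 43.2, 32.7 and 36.7 CPM in the control and at 34.8, 46.5 and 48.7 CPM in the malathion libraries, so in CPM it did not share the low replicate 3 values of GSS and GSR. The fold change was 0.42 ± 1.48 with TMM factors and 0.21 ± 1.94 with library totals. GGCT, which breaks down gamma-glutamyl amino acids, was at 159, 81.0 and 0.679 CPM in the control and at 147, 186 and 2.27 CPM in the malathion libraries, again highest in malathion replicate 2 and lowest in control replicate 3. SLC7A11, the cystine importer that feeds glutathione synthesis, stood at 78.6, 148 and 0.441 CPM and at 70.9, 95.5 and 0.0473 CPM in the same order, with control replicate 2 highest.

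NADPH for GSR comes in part from isocitrate dehydrogenases. IDH1, the cytosolic enzyme, was at 170, 101 and 15.9 CPM in the control and at 155, 197 and 13.5 CPM in the malathion libraries (log2 fold change 0.18 ± 0.98). IDH2, the mitochondrial enzyme, had the second smallest p among tested genes of these lists below 0 (−2.83 ± 1.81, edgeR unadjusted p = 0.139). Its counts were 478 in control replicate 2 against 0 to 40 in the rest. GPX7, a peroxidase of the secretory pathway, had the smallest p among tested genes of these lists above 0 (1.92 ± 1.79). Its sign turned with library totals (−0.74), and its highest library was control replicate 2 in CPM, with 78 counts, and malathion replicate 3 in normalised CPM.

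Enzymes that use glutathione to clear aldehydes, and 2 transporters, complete the named genes. ADH5, the glutathione-dependent formaldehyde dehydrogenase, was at 1444, 719 and 163 CPM in the control and at 1277, 1370 and 240 CPM in the malathion libraries (0.52 ± 1.66). GLO1, which acts on the adduct of glutathione and methylglyoxal, was at 255, 514 and 7.16 CPM and at 248, 344 and 5.46 CPM (−0.12 ± 1.03). ABCC2, an exporter of glutathione conjugates, ranged from 135 to 219 CPM in replicates 1 and 2 and was at 0.916 and 0.236 CPM in replicates 3 (0.18 ± 1.21, and −0.05 with library totals). SLC25A40, a mitochondrial glutathione carrier, stood at 60.6 to 68.3 CPM in replicates 1 and 2 and at 19.7 and 37.6 CPM in control and malathion replicates 3 (0.81 ± 1.24). The library order of GLO1 and ABCC2, with control replicate 2 highest, was unlike that of GSR.

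**Figure D4:**
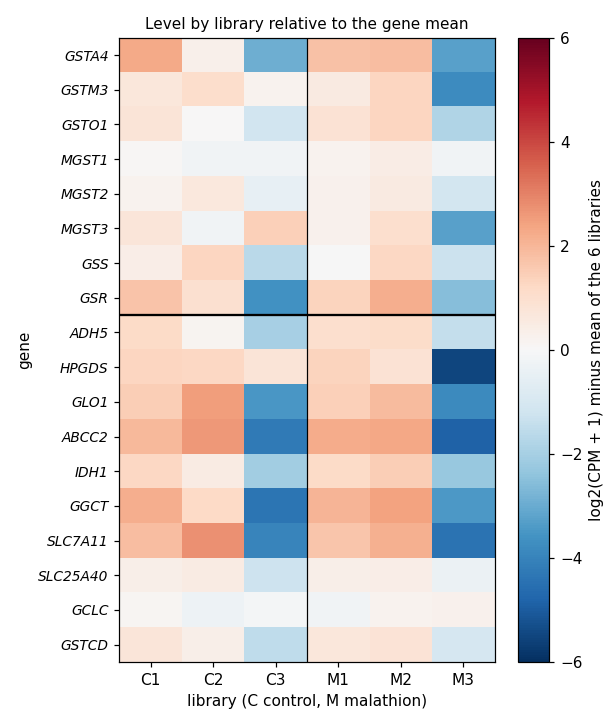
Level of the 8 members (above the line) and the 10 most abundant other glutathione genes by CPM (below it) in each library, as log2(CPM + 1) minus the mean of the gene over the 6 libraries, control (C) left and malathion (M) right. GSTM3, MGST3 and HPGDS are low in M3 and not in C3, while GSTA4, GSR, GGCT and GLO1 are low in both.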

How the data were processed

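The authors' deposited files hold raw, whole-number read counts per Ensembl gene. STAR 2.5.3a, HTSeq 0.9.1 and DESeq2 1.20.0 are named, without roles, in the submitters' processing notes. The build, annotation and strand are not given in the sources used here, so no coordinates are printed, antisense or overlapping genes cannot be separated, and reads shared by transferase paralogs may be lost. Per the labels' protocols, libraries followed a modified Smart-seq2 protocol on polyadenylated RNA, which amplifies by PCR and marks no strand. The 5 summary rows of HTSeq held 36.7% to 42.6% of the reads and were left out. The exact intervals of CPM cover counting error only, while those of log2 fold changes come from the fit and include the spread between libraries.

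The test was the two-sided quasi-likelihood test of edgeR 4.0.16 in R 4.3.3, on TMM-scaled counts of the genes passing filterByExpr (minimum count 10, minimum total 15). Standard errors came from the F statistic. DESeq2 1.42.0, limma-voom (limma 3.58.1), other scalings and left-out libraries were alternatives. The test was also run on simulated counts with known changes, which had far less spread between libraries and no outlying libraries. That run does not show how the test behaves on libraries that spread as these do. A chi-square per degree of freedom of at least 56.9 for each pair of libraries left no library in duplicate.

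Members and lists were chosen with earlier results of these data known. Named genes were all members, the 10 other glutathione genes with the highest mean CPM, the 2 with the smallest p in each direction, and the 3 genes most like GSR (mean of at least 10 CPM), 1 of which is not reported here. Genes named in the closing section and the count of libraries over 10-fold lower were chosen after values were seen. Symbols were found for 14857 identifiers.

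Replicate numbers are shared between groups, and no label says what they mark. Across genes, deviations from the group mean correlated between same-numbered libraries at r = 0.539, 0.473 and 0.599 for replicates 1, 2 and 3. Malathion replicate 2 correlated better with control replicate 1 (0.502), and malathion replicate 1 with control replicate 2 stood at 0.405. Deviations cancel out within a group and both replicates 3 stood apart, so these values cannot show whether the numbers pair the samples. The main test used no pairing, and the block by replicate number was an alternative.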

Additional observations from a re-analysis of the deposited data

How the results depend on the processing

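No member and no gene of the other glutathione lists was called under any setting run. The count over all genes was 0, 60 without the filter on low counts, and 0 to 3 when leaving out 1 library (3 without either malathion replicate 1 or 2). Pairing by replicate number (a block) changed no call, with 0 genes called and 120 at an unadjusted p under 0.05. The direction of a member did turn. With library totals alone GSTO1 stood at 0.68 and GSS at −0.14, and with limma-voom MGST2 at 0.03. Without both replicates 3, GSTM3 was at 0.34, GSTO1 at 0.90, MGST2 at 0.22 and MGST3 at 0.49. With library totals, chosen after seeing the data, these libraries gave 0.10 for GSTM3, 0.78 for GSTO1, 0.39 for MGST3 and −0.18 for GSS, and the block gave −0.11 for GSTA4. Without control replicate 2 as well, CPM ratios with no test were −0.51 for GSTA4, 0.30 for GSTM3, 0.37 for GSTO1 and 0.20 for MGST2. The cause was not tested.

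When leaving out 1 library, log2 fold changes ranged from −0.31 to 1.62 for GSTA4, −2.87 to −0.07 for GSTM3, −0.80 to 0.36 for GSTO1, −1.78 to 1.52 for MGST2, −4.53 to −0.01 for MGST3, 0.24 to 1.00 for GSS and 0.44 to 1.40 for GSR. With library totals the ranges were −0.40 to 1.91, −1.10 to 0.30, 0.02 to 1.49, −0.51 to 0.22, −1.55 to −0.12, −1.41 to 0.87 and −0.39 to 1.25 in the same order. Over all tested genes, 95% intervals reached a median of 3.02 to either side of the log2 fold change. MGST1 had at most 16 counts in a library, too few for the filter.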

Other observations

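Control replicate 2 was the highest of the 6 libraries in CPM for 14 of the 32 tested genes of the other glutathione lists and for 2 of the 7 tested members (MGST2 and GSS), against 54.7% of all tested genes. Glutaredoxins, which use glutathione to reduce or carry iron-sulfur groups, were among them. GLRX3 stood there at 21.3 CPM against 0 to 4.73 CPM elsewhere, and GLRX5 at 21.7 CPM against 0.204 to 10.4 CPM. CHAC1, a stress-induced enzyme that degrades glutathione, stood at 42.2 CPM in that library against 0 to 16.1 CPM. ETHE1, a mitochondrial dioxygenase of glutathione persulfide, stood there at 33.6 CPM against 0 to 9.18 CPM. In normalised CPM, GLRX5 was highest in malathion replicate 3 (9.915 against 6.085 in control replicate 2), while GLRX3, CHAC1 and ETHE1 stayed highest in control replicate 2. GPX8, a peroxidase of the endoplasmic reticulum, differed from these, with 20.0, 16.1 and 0 CPM in the control and 32.3, 36.0 and 0.402 CPM in the malathion libraries. None of the 5 genes was called.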
